A study of Mus musculus with 9 samples.

Results

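The genes described here are 43 genes of glycolysis, of glucose and lactate transport and of the response to low oxygen, measured by RNA-seq in Lewis lung carcinoma cells (LLC, a mouse lung cancer line) with and without CD47. They were found by gene symbol in the deposited count table. The 43 symbols matched 44 of its 50813 rows, since Aldoa has 2 rows, and 42 of the 44 rows were among the 14593 rows with enough counts to be tested. Only Slc2a4 and Epas1 were too low.

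The study asked what loss of CD47, a membrane protein that binds SIRPα and thrombospondin, changes inside lung cancer cells. It compared 3 lines of cultured LLC cells with 3 libraries each: WT, which the labels call clonal, and the CD47 knockout clones KO E3 and KO E5. All 3 lines carried a luciferase reporter and grew in the same serum-containing medium, with no further treatment. Each knockout line came from a single cell after electroporation of Cas9 ribonucleoprotein targeting Cd47, so that an effect of the genotype and a property of that clone cannot be told apart within 1 line. A change found in a single clone is therefore reported for that clone.

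Glycolysis splits glucose into pyruvate, which lactate dehydrogenase can turn into lactate. Glucose enters through GLUT transporters, hexokinase and phosphofructokinase set the pace, and monocarboxylate transporters carry lactate out. Tumour cells often run this route even with oxygen present. When oxygen is low, prolyl hydroxylases stop marking HIF-1α for destruction by the VHL complex, and HIF-1 then raises the genes of nearly every glycolytic step through short DNA elements that hold the letters ACGTG or GCGTG.

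Total counts ran from 44257404 to 55095219 per library, and the members took between 1.44% and 1.91% of them. Cd47 itself was at 187, 179 and 182 CPM (counts relative to the library total, scaled by TMM) in WT, at 47.4, 36.8 and 49.6 CPM in KO E3 and at 15.5, 18.6 and 18.1 CPM in KO E5, so that every knockout library lay below every WT library. The lung and epithelial markers Epcam, Nkx2-1, Sftpc and Sftpb had no count in any library and Cdh1 stayed at or below 0.13 CPM. The mesenchymal marker Vim lay between 4131 and 6833 CPM, with means of 4166 in WT, 5480 in KO E3 and 6571 in KO E5. Fn1, of the same list, went the other way, with means of 1929, 1097 and 1220 CPM. Cdh2 lay between 19.15 and 34.19 CPM and Zeb1 between 43.01 and 93.56 CPM, where KO E3 replicate 3 was lowest for both. The keratins Krt8 and Krt18, which carried nearly all of the summed epithelial list, moved with the lines: this sum was 451 to 459 CPM in WT, 128 to 199 CPM in KO E3 and 896 to 958 CPM in KO E5, and its part in the results was not tested. Immune, endothelial and erythroid markers summed to at most 3.45, 0.19 and 0.066 CPM. KO E3 replicate 3 stood apart from the other libraries of its line, where a chi-square over genes, divided by its degrees of freedom, came to 186 and 224 against them, beside 4.71 to 37.9 for the other pairs of libraries within a line.

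To show what the HIF-1 core letters look like at these genes, the bases just upstream of 4 transcript starts are printed 5′ to 3′ on the strand of the gene, in mouse build GRCm39. Slc2a1, Hk2 and Ndrg1 are shown because they fell in KO E3, and Pgk1 because it rose in KO E5. Capitals mark ACGTG or GCGTG, or the same letters read on the other strand, CACGT or CACGC. Bases that the annotation gives as an exon of another transcript of the gene were left off the 3′ end of the windows of Hk2 and Ndrg1.
Slc2a1, chr4:118965658-118965907, plus strand: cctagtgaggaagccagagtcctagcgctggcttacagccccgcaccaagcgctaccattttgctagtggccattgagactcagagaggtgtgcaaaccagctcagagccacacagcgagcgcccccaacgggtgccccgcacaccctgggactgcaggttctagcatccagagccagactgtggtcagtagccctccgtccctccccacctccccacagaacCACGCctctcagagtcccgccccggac
Hk2, chr6:82751470-82751702, minus strand: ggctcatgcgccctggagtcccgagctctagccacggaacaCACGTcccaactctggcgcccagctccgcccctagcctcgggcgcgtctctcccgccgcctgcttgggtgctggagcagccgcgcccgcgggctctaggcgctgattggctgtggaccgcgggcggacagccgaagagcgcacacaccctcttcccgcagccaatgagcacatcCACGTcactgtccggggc
Pgk1, chrX:105230456-105230705, plus strand: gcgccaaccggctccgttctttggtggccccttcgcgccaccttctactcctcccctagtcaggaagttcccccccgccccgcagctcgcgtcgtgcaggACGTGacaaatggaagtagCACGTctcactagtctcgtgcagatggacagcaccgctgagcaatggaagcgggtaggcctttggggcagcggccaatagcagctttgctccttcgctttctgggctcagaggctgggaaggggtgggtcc
Ndrg1, chr15:66841836-66842052, minus strand: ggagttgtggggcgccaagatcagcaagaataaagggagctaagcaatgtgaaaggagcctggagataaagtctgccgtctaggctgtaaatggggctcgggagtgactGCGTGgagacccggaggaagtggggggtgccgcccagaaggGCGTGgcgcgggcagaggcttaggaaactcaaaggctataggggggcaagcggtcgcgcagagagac
In the 250 bases before the start, either core was found for 26 of the 41 members tested (63.4%) and for 53.8% of the 12053 protein-coding genes tested. The ACGTG core alone was found for 17 of these members (41.5%), against 21.4% of those genes. Ndrg1 had 3 matches in its whole window and Hk2 had 2, while Slc2a3 and Car9 had none. Ldha had 4 matches, in 2 of which the core sits inside CACGTG, which also reads as an E-box, the site of MYC-type factors. The only ACGTG match of Egln1, Hif1a, Pdk2, Pfkp and Slc16a1 also lay inside CACGTG. This longer site was not counted over all genes. A match is a description of these letters and not of binding.

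Called genes are those with a Benjamini-Hochberg adjusted p below 0.05, over all 14593 rows, in the quasi-likelihood test of edgeR. DEGs are called genes with a log2 fold change above 1 or below -1. All fold changes are given as log2 values with their SE, from 3 libraries per line. In KO E3, 21 of the 42 tested members (50%) were called against WT, 7 higher and 14 lower, where 30.5% of all genes tested were called, 15.7% higher and 14.7% lower. In KO E5, 19 members (45.2%) were called, 11 higher and 8 lower, where 20.6% of all genes were called, 8.96% higher and 11.7% lower. Of the members, 10 (23.8%) were DEGs in KO E3, 3 higher and 7 lower, where 9.82% of all genes were DEGs, 5.43% higher and 4.39% lower. In KO E5, 5 members (11.9%) were DEGs, 2 higher and 3 lower, where 8.21% of all genes were, 2.69% higher and 5.52% lower. The libraries of KO E3 and WT did not overlap for 23 of the 42 members, beside 45.4% of all genes. Those of KO E5 and WT did not overlap for 28 of the 42, beside 55.4%. The median member fold change was -0.10 in KO E3, beside 0.01 for all genes, and 0.06 in KO E5, beside -0.0023 for all genes. In bulk RNA, a lower level in every cell and fewer cells with a high level cannot be told apart. The count in KO E5 depended on single libraries: it was 11 without WT replicate 2 or 3 or KO E5 replicate 1 and 10 without KO E5 replicate 2, and the DEGs there numbered 2, 3, 3 and 2 without WT replicate 2, WT replicate 3, KO E5 replicate 1 and KO E5 replicate 2. Without KO E3 replicate 3, 22 members were called in KO E3 and 26 in KO E5. Leaving out a library also changes the estimate of spread for every gene. The calls of all genes in these fits are not set beside the member counts. These counts therefore cannot show whether the members were more sensitive than other genes.

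Both clones shared WT as control, and their calls are given side by side for that reason. Pfkm, Pdk2 and Egln1 were higher in both clones. Slc2a1, Pfkl, Slc16a1, Car9, Ero1a and the second Aldoa row were lower in both. Slc2a3, Hk1 and Pfkp were lower in KO E3 and higher in KO E5, and Ldhb was the only member called higher in KO E3 and lower in KO E5. No call against WT was made in either clone for 15 members. The study's methods call the libraries of each genotype independent biological replicates. All libraries of a knockout line still come from 1 clone. The p-values set a difference against the spread between libraries within lines, estimated over all 9 libraries, and not against the spread between clones.

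**Figure D1:**
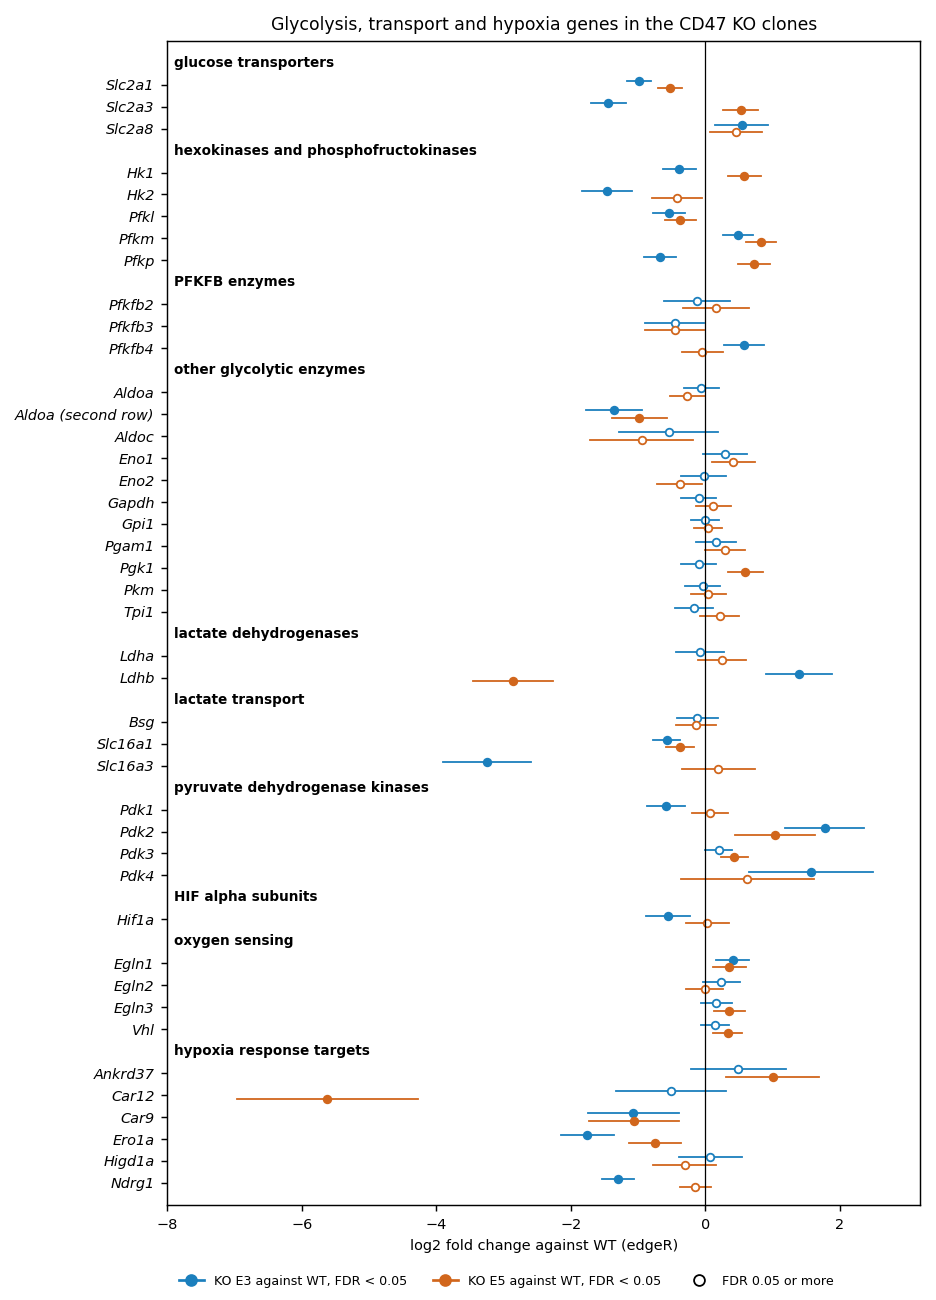
Log2 fold change against WT of the 42 tested member rows, grouped by role, for KO E3 (blue) and KO E5 (orange). Points are edgeR estimates, bars their 95% confidence intervals, and open points did not pass an adjusted p of 0.05; the enzymes of the middle of glycolysis cluster around 0 while Slc16a3, Ldhb and Car12 lie farthest out.

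Glucose transporters differed between the lines in level and in kind. Slc2a1, which encodes GLUT1, the main glucose carrier of most cultured cells, was at 224, 224 and 234 CPM in WT, 113, 115 and 115 CPM in KO E3 and 156, 164 and 154 CPM in KO E5. The 3 lines did not overlap, with WT highest and KO E3 lowest. The log2 fold change was -0.99 ± 0.08 in KO E3 (adjusted p = 2.4e-05) and -0.53 ± 0.08 in KO E5 (adjusted p = 0.00111), so that KO E3 kept 0.503 and KO E5 0.694 times the WT level. Slc2a3, which encodes the high-affinity carrier GLUT3, was at 16.4, 20.1 and 20.4 CPM in WT, 7.4, 7.08 and 6.46 CPM in KO E3 and 25.7, 29.2 and 26.8 CPM in KO E5. Here KO E3 again lay lowest, but KO E5 lay above WT. Its log2 fold change was -1.44 ± 0.12 in KO E3 (adjusted p = 2.6e-05) and 0.52 ± 0.11 in KO E5 (adjusted p = 0.00894, and 0.0519 without KO E5 replicate 2). Slc2a8, which encodes the intracellular carrier GLUT8, rose in KO E3 by 0.54 ± 0.18 (adjusted p = 0.0402), a call that was lost when any library but KO E3 replicate 2 was left out (adjusted p = 0.0575 to 0.118). In KO E5 its change was 0.46 (adjusted p = 0.0937). Slc2a4, the insulin-responsive carrier of muscle and fat, had 2 to 21 counts per library and was not tested.

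Hexokinases and phosphofructokinases catalyse the steps at which entry into glycolysis is controlled. All 5 hexokinase and phosphofructokinase genes were called in KO E3, 4 lower and 1 higher, and 4 (80%) were called in KO E5, 3 higher and 1 lower, beside 30.5% and 20.6% of all genes. Hk2, the inducible hexokinase that binds mitochondria, was at 201, 235 and 262 CPM in WT, 89.2, 100.5 and 63.9 CPM in KO E3 and 170.1, 195 and 158 CPM in KO E5. KO E3 lay below both other lines, and KO E5 lay below WT without overlap. The log2 fold change was -1.46 ± 0.17 in KO E3 (adjusted p = 0.000197). In KO E5 it was -0.41 ± 0.17 (adjusted p = 0.109), and 0.00656 without KO E3 replicate 3, the library that stood apart and that shares the estimate of spread. Hk1, the constitutive hexokinase, fell in KO E3 by -0.38 ± 0.11 (adjusted p = 0.0217, lost without WT replicate 2 or 3 at 0.0604 to 0.0999) and rose in KO E5 by 0.58 ± 0.11 (adjusted p = 0.0035).

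The 3 subunit genes of phosphofructokinase each followed a course of their own. Pfkl, the liver-type subunit, fell in both clones, by -0.54 ± 0.11 in KO E3 (adjusted p = 0.00372) and -0.37 ± 0.11 in KO E5 (adjusted p = 0.0313). The call in KO E5 was lost when any WT or KO E5 library was left out (adjusted p = 0.0647 to 0.126). Pfkm, the muscle-type subunit, rose in both, by 0.48 ± 0.10 (adjusted p = 0.00506) and 0.83 ± 0.10 (adjusted p = 0.000241). Pfkp, the platelet-type subunit, was at 122, 114 and 124 CPM in WT, 82.6, 75.6 and 66.9 CPM in KO E3 and 182, 205 and 209 CPM in KO E5. The lines did not overlap, with KO E3 lowest and KO E5 highest. The fitted change was -0.68 ± 0.11 in KO E3 (adjusted p = 0.00102) and 0.73 ± 0.11 in KO E5 (adjusted p = 0.000795).

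Levels per kilobase of transcript allow the genes of a family to be compared with each other. On that scale Hk2 made up 45.1% ± 1.93 (SD, n = 3) of the summed Hk1 and Hk2 level in WT, 27.9% ± 2.96 in KO E3 and 29.2% ± 0.72 in KO E5. The summed level was 66.1 ± 6.26 CPM per kb in WT, 38.6 ± 4.90 in KO E3 and 76.7 ± 6.81 in KO E5, so that the share of Hk2 was lower in both clones while the sum was lower in KO E3 only. Pfkl was the leading phosphofructokinase in WT with 54.5% ± 1.26, beside 25.9% ± 0.91 for Pfkp and 19.6% ± 0.39 for Pfkm. In KO E5, Pfkp (35.8% ± 2.47) and Pfkl (35.1% ± 2.23) had shares that overlapped between libraries. In KO E3, Pfkm (33.7% ± 3.37) stood second to Pfkl (46.3% ± 4.50). Slc2a1 made up 85.1% ± 0.57 of the 4 glucose carriers in WT, 76.7% ± 3.73 in KO E3 and 73.8% ± 0.71 in KO E5. These shares were not tested on their own.

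**Figure D2:**
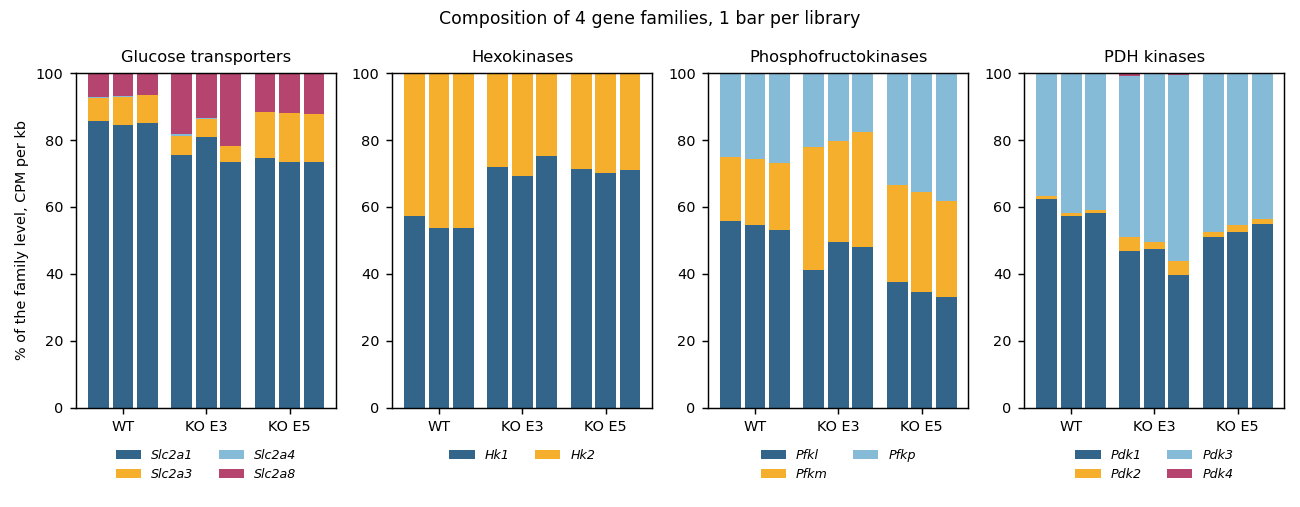
Share of each gene in the summed level (CPM per kb of transcript, in %) of 4 families, 1 bar per library, 3 libraries per line. Hk2 takes 42.9% to 46.2% of the hexokinase level in WT and 24.9% to 30.8% in the knockout libraries, and the share of Pfkl is lower in both clones, where Pfkm in both and Pfkp in KO E5 take more than in WT.

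The PFKFB enzymes make and break fructose 2,6-bisphosphate, the strongest activator of phosphofructokinase. Pfkfb4 rose in KO E3, by 0.58 ± 0.14 (adjusted p = 0.00933), from 3.95 ± 0.156 CPM to 5.89 ± 0.634 CPM (SD, n = 3). In KO E5 its change was -0.04 (adjusted p = 0.867). Pfkfb3, the form with the highest kinase activity, had a log2 fold change of -0.45 in KO E3 and -0.45 in KO E5, and Pfkfb2 had -0.13 and 0.16; none of these passed the test.

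The middle and lower steps of glycolysis held the most abundant members. Of the 11 rows of this group, 1 (9.09%) was called in KO E3 and 2 (18.2%) in KO E5, beside 30.5% and 20.6% of all genes. The call in KO E3 and 1 of the 2 in KO E5 were those of the second Aldoa row, described below, which bears another name in GENCODE M39. The other call in KO E5 was Pgk1. Gapdh, Pkm, Ldha, Eno1 and Aldoa had the highest levels per kb among the members in WT, and none of the 5 was called against WT in either clone. Gapdh, which oxidises glyceraldehyde 3-phosphate, was at 3218, 3315 and 3351 CPM in WT, 2691, 3012 and 3531 CPM in KO E3 and 3666, 3758 and 3306 CPM in KO E5. The lines overlapped, and the intervals of the log2 fold change ran from -0.36 to 0.16 in KO E3 and from -0.14 to 0.38 in KO E5. Pkm, the pyruvate kinase gene of tumour cells, was at 3944, 4139 and 4231 CPM in WT, 3524, 4046 and 4416 CPM in KO E3 and 4425, 4454 and 3804 CPM in KO E5. It overlapped in the same way, with intervals from -0.30 to 0.22 and from -0.22 to 0.30. Aldoa, the main aldolase, was at 765, 713 and 729 CPM in WT, 625, 665 and 827 CPM in KO E3 and 626, 640.5 and 569.7 CPM in KO E5. KO E5 lay below WT without overlap, with a log2 fold change of -0.27 ± 0.12 (adjusted p = 0.142, and 0.0109 without KO E3 replicate 3). Pgk1, which makes the first ATP of the route, was at 765, 708 and 695 CPM in WT, 579.5, 714 and 729.8 CPM in KO E3 and 1162, 1120 and 995 CPM in KO E5. Every KO E5 library lay above the other 6, and the log2 fold change was 0.60 ± 0.12 in KO E5 (adjusted p = 0.00471) and -0.10 ± 0.12 in KO E3 (adjusted p = 0.554).

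Of the remaining enzymes, Eno1 had log2 fold changes of 0.29 in KO E3 and 0.42 in KO E5 (adjusted p = 0.0692), Pgam1 of 0.16 and 0.29, Tpi1 of -0.17 and 0.21, and Gpi1 of -0.01 and 0.04. The brain-type isoforms Eno2 (-0.02 and -0.38) and Aldoc (-0.54 and -0.95) also missed the threshold. The second Aldoa row (chr7:126399962-126408280 in GRCm39) lies just upstream of the main one (chr7:126394406-126399923) and held far fewer counts, at 3.83, 3.43 and 3.23 CPM in WT, 1.72, 1.27 and 1.1 CPM in KO E3 and 1.79, 1.69 and 1.83 CPM in KO E5. Both clones lay below WT there, with log2 fold changes of -1.35 ± 0.19 (adjusted p = 0.000497) and -0.98 ± 0.18 (adjusted p = 0.00375). In the GENCODE M39 annotation this row bears another name, Gm57854, and overlaps Aldoa, so that reads of the 2 rows may not be separable. Gapdh, Pgk1, Ldha, Eno1 and other members of this group have processed pseudogenes, and how the counting treated reads shared with those copies is not given in the sources used here.

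The libraries of each knockout line spread widely in these enzymes. The summed level of Gpi1, Aldoa, Tpi1, Gapdh, Pgk1, Pgam1, Eno1, Pkm and Ldha was 13263, 13415 and 13721 CPM in WT, 11566, 13679 and 14828 CPM in KO E3 and 16226, 15853 and 13408 CPM in KO E5. The coefficient of variation was 1.73% in WT, 12.4% in KO E3 and 10.1% in KO E5. KO E3 replicate 1 was the lowest library of its line for 8 of these 9 genes, and KO E5 replicate 3 was the lowest of its line for all 9. In KO E3, Gpi1 was the exception, at 0.971, 0.964 and 1.05 times the WT mean in its replicates in order. The highest sum of KO E3 was that of replicate 3, the library that stood apart. How often these libraries were the lowest of their line over all genes was not counted. These counts therefore cannot show a shift particular to the 9 genes.

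**Figure D3:**
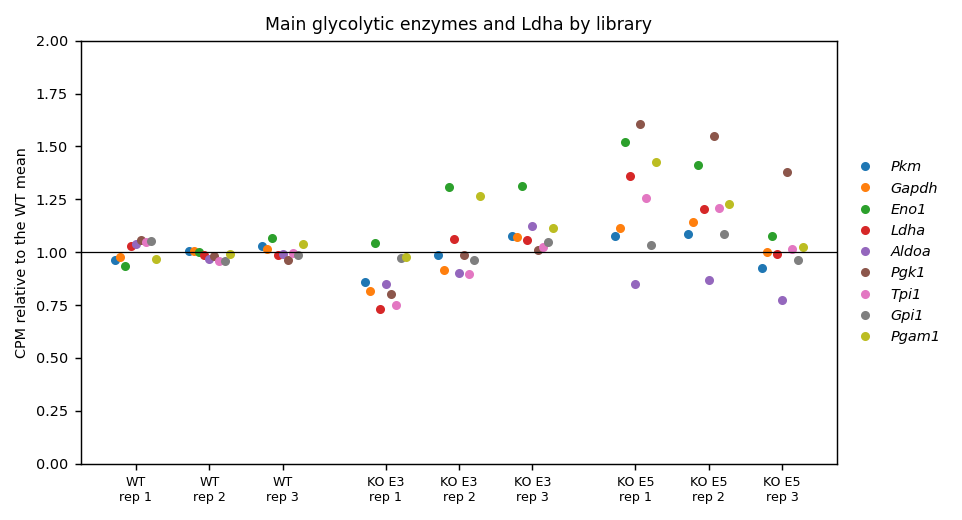
Level of 9 glycolytic genes in each library, as CPM divided by the mean of the 3 WT libraries (line at 1). KO E3 replicate 1 and KO E5 replicate 3 lie low within their lines, and Pgk1 lies at 1.38 to 1.61 times the WT mean in KO E5.

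Of the 2 lactate dehydrogenase genes, Ldhb was called in both clones and Ldha in neither. Ldha, whose subunit favours the making of lactate, was at 1384, 1331 and 1328 CPM in WT, 987, 1432 and 1423 CPM in KO E3 and 1836, 1620 and 1334 CPM in KO E5. The lines overlapped, and neither the change in KO E3 (-0.07 ± 0.16, adjusted p = 0.768) nor that in KO E5 (0.24 ± 0.16, adjusted p = 0.326) passed the test. Ldhb (chr6:142435975-142453683), whose subunit favours the return of lactate to pyruvate, was at 3.85, 3.41 and 4.01 CPM in WT, 9.28, 7.31 and 13.1 CPM in KO E3 and 0.366, 0.542 and 0.629 CPM in KO E5. No 2 lines overlapped: KO E3 lay above WT, and KO E5 far below it. The log2 fold change was 1.40 ± 0.22 in KO E3 (adjusted p = 0.00106) and -2.86 ± 0.27 in KO E5 (adjusted p = 4.4e-05). Ldhb nonetheless made up a small part of the family: 0.29% ± 0.024 (SD, n = 3) of the summed level per kb in WT, 0.81% ± 0.25 in KO E3 and 0.035% ± 0.014 in KO E5.

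Both lactate carriers fell in KO E3. Slc16a3 (chr11:120839306-120851694), which encodes MCT4, the exporter typical of glycolytic cells, was at 7.07, 5.38 and 6.12 CPM in WT, 0.76, 0.338 and 0.858 CPM in KO E3 and 8.7, 7.16 and 5.46 CPM in KO E5. Every KO E3 library lay below every other library, while KO E5 overlapped WT. The log2 difference from WT was -3.24 ± 0.30 in KO E3 (adjusted p = 4.6e-05), a 9.47-fold lower level, and 0.20 ± 0.24 in KO E5 (adjusted p = 0.631). Slc16a1, which encodes MCT1, was the dominant carrier, with 98.9% ± 0.15 of the summed level per kb in WT. It fell in both clones, from 549.5 ± 13.7 CPM in WT to 369 ± 29.5 CPM in KO E3 and 422 ± 17.4 CPM in KO E5 (SD, n = 3), with log2 fold changes of -0.58 ± 0.09 (adjusted p = 0.00127) and -0.38 ± 0.09 (adjusted p = 0.0162). The call in KO E5 was lost without any 1 of the WT libraries or KO E5 replicate 1 or 2 (adjusted p = 0.0509 to 0.0746). Bsg, which encodes basigin, the partner that brings both carriers to the membrane, had log2 fold changes of -0.12 and -0.14 and was not called.

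Pyruvate dehydrogenase kinases switch off the entry of pyruvate into the citric acid cycle. Pdk1, the HIF-responsive form, was at 146, 115 and 121 CPM in WT, 86, 94.7 and 74 CPM in KO E3 and 127, 133 and 140.4 CPM in KO E5. KO E3 lay below both other lines, which overlapped. The log2 fold change was -0.58 ± 0.12 in KO E3 (adjusted p = 0.00559) and 0.07 ± 0.12 in KO E5 (adjusted p = 0.742). Pdk2, a widely expressed form, was low in all lines, at 0.942, 0.947 and 0.675 CPM in WT, 3.48, 1.94 and 3.39 CPM in KO E3 and 1.64, 2.1 and 1.55 CPM in KO E5. Both clones lay above WT, by 1.78 ± 0.26 (adjusted p = 0.000772) and 1.04 ± 0.27 (adjusted p = 0.0209). The call of Pdk2 in KO E5 was lost without any 1 of the WT libraries or KO E5 replicate 2 (adjusted p = 0.0516 to 0.0862). Pdk3 rose in KO E5 by 0.43 ± 0.09 (adjusted p = 0.00668), and its change in KO E3 was 0.20 (adjusted p = 0.118).

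Pdk4, the form induced by fasting, was at 0.401, 0.231 and 0.105 CPM in WT, 0.96, 0.507 and 0.748 CPM in KO E3 and 0.345, 0.477 and 0.333 CPM in KO E5, or 5 to 48 counts per library. KO E3 lay above both other lines. Its log2 fold change was 1.57 ± 0.42 in KO E3 (adjusted p = 0.017, and 0.059 to 0.0648 without WT replicate 2 or 3 or KO E3 replicate 1) and 0.63 in KO E5 (adjusted p = 0.37). Per kb, Pdk1 and Pdk3 together supplied most of the family in every line: Pdk1 made up 59.2% ± 2.70 (SD, n = 3) in WT, 44.6% ± 4.23 in KO E3 and 52.9% ± 1.89 in KO E5, and Pdk3 39.7% ± 2.74, 51.3% ± 3.82 and 45.3% ± 1.82.

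Of the 2 HIF alpha subunit genes among the members, Hif1a was tested and Epas1, which encodes HIF-2α, had 0 to 3 counts per library. Hif1a was at 441, 483 and 495 CPM in WT, 378, 348 and 243 CPM in KO E3 and 469, 488 and 494 CPM in KO E5. KO E3 lay below the other lines and its replicate 3 was the lowest library, whereas KO E5 overlapped WT. The log2 fold change was -0.55 ± 0.15 in KO E3 (adjusted p = 0.0174, and 0.0623 to 0.0664 without WT replicate 2 or 3) and 0.03 ± 0.15 in KO E5 (adjusted p = 0.909). These are transcript levels; HIF-1α is controlled chiefly through the stability of the protein, which was not measured here.

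Of the 4 oxygen-sensing genes, 1 (25%) rose in KO E3 and 3 (75%) in KO E5, where 15.7% and 8.96% of all genes rose. Egln1, which encodes PHD2, the main HIF prolyl hydroxylase, was at 77.6, 67.8 and 76.1 CPM in WT, 88.7, 98.6 and 107 CPM in KO E3 and 102, 98.5 and 84.2 CPM in KO E5. Both clones lay above WT, by 0.41 ± 0.11 (adjusted p = 0.0188) and 0.36 ± 0.11 (adjusted p = 0.0444). The call in KO E3 was lost without WT replicate 2 or 3 (adjusted p = 0.056 to 0.0991) and that in KO E5 without any 1 of the WT libraries, KO E3 replicate 2 or KO E5 replicate 1 or 2 (adjusted p = 0.0502 to 0.191). Egln3, which encodes the hypoxia-inducible PHD3, was at 149, 129.5 and 142 CPM in WT, 173, 145 and 154 CPM in KO E3 and 167, 188 and 185 CPM in KO E5. KO E5 lay above WT, while KO E3 overlapped it. The fitted change was 0.36 ± 0.10 in KO E5 (adjusted p = 0.0323) and 0.17 in KO E3 (adjusted p = 0.248). Vhl, the recognition subunit of the ligase that marks HIF-1α, rose in KO E5 by 0.33 ± 0.10 (adjusted p = 0.0319). The call of Egln3 in KO E5 was lost without any 1 of the WT or KO E5 libraries (adjusted p = 0.0539 to 0.16), and that of Vhl likewise except without WT replicate 1 (adjusted p = 0.0829 to 0.14). Egln2, which encodes PHD1, was not called in either clone (0.24 and -0.01).

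Of the 6 hypoxia response targets, 3 (50%) fell in KO E3 and none rose, and in KO E5 3 fell and 1 rose (66.7% called), beside 30.5% and 20.6% of all genes called. Ero1a, which drives disulfide bond formation in the endoplasmic reticulum, was at 399.7, 332 and 352 CPM in WT, 126, 118 and 78 CPM in KO E3 and 185, 232 and 228 CPM in KO E5. The lines did not overlap, with KO E3 lowest and WT highest. The log2 difference from WT was -1.75 ± 0.18 in KO E3 (adjusted p = 8.1e-05) and -0.75 ± 0.17 in KO E5 (adjusted p = 0.0117, and 0.0538 to 0.0596 without WT replicate 1 or KO E5 replicate 1). Ndrg1, a stress-induced gene and common marker of HIF activity, was at 150, 163 and 173 CPM in WT, 67, 65.3 and 65.4 CPM in KO E3 and 129.8, 164 and 144 CPM in KO E5. The KO E3 libraries were nearly identical and lay far below the rest, while KO E5 overlapped WT. Its log2 fold change was -1.29 ± 0.11 in KO E3 (adjusted p = 2.6e-05) and -0.15 ± 0.11 in KO E5 (adjusted p = 0.372).

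Car9 and Car12 encode membrane carbonic anhydrases that acidify the space around the cell. Car9 was near the limit of detection, at 0.521, 0.778 and 0.612 CPM in WT, 0.26, 0.254 and 0.396 CPM in KO E3 and 0.28, 0.239 and 0.388 CPM in KO E5, or 11 to 37 counts per library. Both clones lay below WT, by -1.07 ± 0.30 (adjusted p = 0.0232) and -1.05 ± 0.30 (adjusted p = 0.0326). These calls were lost without WT replicate 2 or 3, or without replicate 1 or 2 of the clone itself (adjusted p = 0.059 to 0.102 in KO E3 and 0.0801 to 0.138 in KO E5). Car12 (chr9:66620968-66674127) was at 1.88, 2.57 and 1.98 CPM in WT and 1.22, 2.3 and 0.989 CPM in KO E3, and the KO E5 libraries held 0, 5 and 1 counts. KO E3 overlapped WT and KO E5 lay far below both. The fitted change was -5.62 ± 0.61 in KO E5 (adjusted p = 0.000109) and -0.51 in KO E3 (adjusted p = 0.33); at so few counts the size of the fall in KO E5 is uncertain, with a 95% interval from -6.96 to -4.28.

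Ankrd37, an ankyrin repeat gene induced by HIF-1, was at 2.54, 1.35 and 1.18 CPM in WT, 2.14, 1.92 and 3.1 CPM in KO E3 and 4.2, 3.47 and 2.55 CPM in KO E5. KO E5 lay above WT by a narrow margin, and KO E3 overlapped WT. The log2 difference from WT was 1.00 ± 0.31 in KO E5 (adjusted p = 0.0454, and 0.0607 to 0.166 without WT replicate 2 or 3, KO E3 replicate 1 or KO E5 replicate 1 or 2) and 0.49 in KO E3 (adjusted p = 0.272). Higd1a, a protein of the inner mitochondrial membrane, was not called (0.07 and -0.31).

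**Figure D4:**
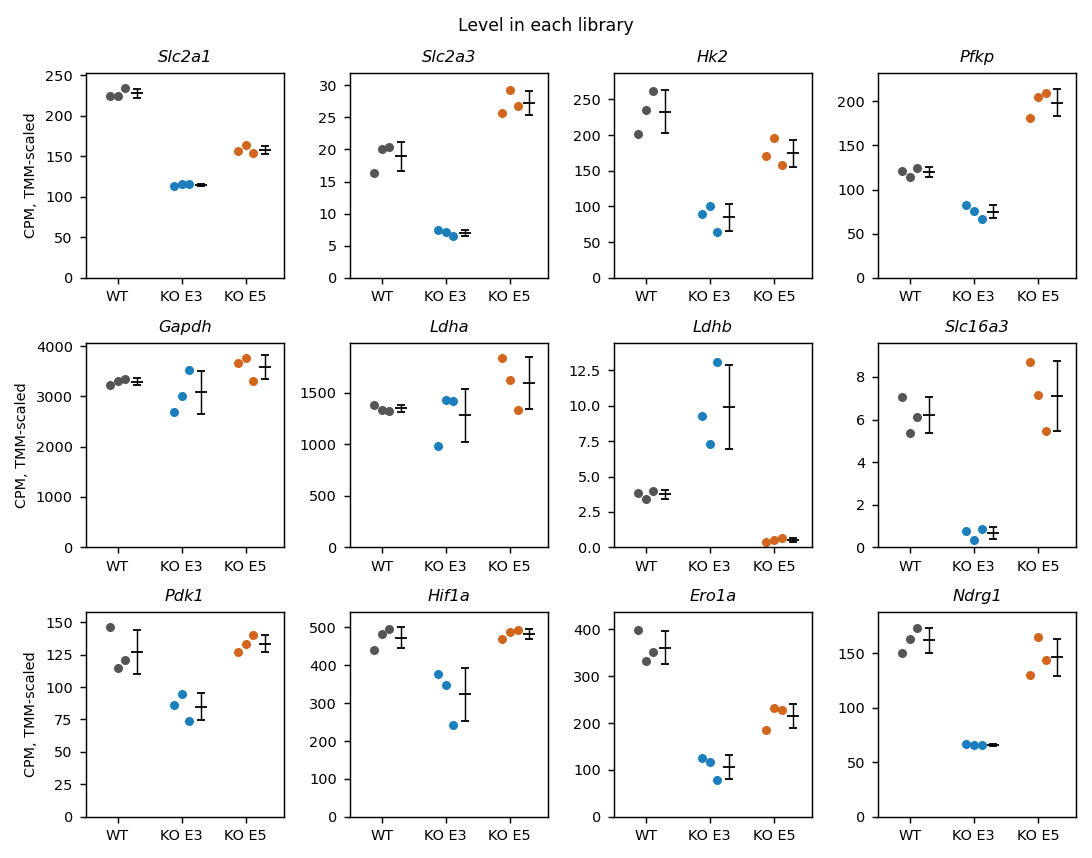
Level of 12 members in each of the 9 libraries (CPM, TMM-scaled, linear axes from 0), with the mean and SD of 3 libraries per line in black. The 12 genes were picked for display. KO E3 lies lowest without overlap for 9 of them, Gapdh and Ldha overlap between lines, and Ldhb runs the other way. Pfkm, Pfkfb4, Pdk2, Pdk4, Egln1 and Slc2a8, all called higher in KO E3, are not shown. Of the 42 tested members, 14 were called lower and 7 higher in KO E3, beside 14.7% and 15.7% of all genes.

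The difference between the clones was tested directly. Of the 42 members, 17 (40.5%) were called between KO E5 and KO E3, 13 higher and 4 lower in KO E5, where 31.9% of all genes were called, 14.7% higher and 17.2% lower. Of these, 8 (19% of the 42) were DEGs, 6 higher and 2 lower, where 11% of all genes were DEGs, 3.49% higher and 7.52% lower. The clones did not overlap for 20 of the 42 members, beside 44.6% of all genes. Slc2a3 (1.96 ± 0.12, adjusted p = 1.2e-06), Pfkp (1.41 ± 0.11, adjusted p = 6.8e-06), Hk2 (1.05 ± 0.17, adjusted p = 0.00109), Slc16a3 (3.44 ± 0.30, adjusted p = 1.6e-05), Ndrg1 (1.15 ± 0.11, adjusted p = 2.7e-05) and Ero1a (1.00 ± 0.17, adjusted p = 0.00166) were higher in KO E5. Ldhb (-4.25 ± 0.27, adjusted p = 1.6e-06) and Car12 (-5.11 ± 0.62, adjusted p = 0.000184) were lower.

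Smaller differences between the clones joined other steps of the route. Hk1 (0.97), Pgk1 (0.70), Pdk1 (0.65), Hif1a (0.58), Slc2a1 (0.46), Tpi1 (0.38) and Pfkm (0.35) were also higher in KO E5, and Pdk2 (-0.74) and Pfkfb4 (-0.62) were lower. The calls of Tpi1 (adjusted p = 0.0468), Pdk2 (adjusted p = 0.0444) and Pfkm (adjusted p = 0.0221) depended on single libraries. That of Tpi1 was lost without any 1 library other than KO E3 replicate 3 and KO E5 replicate 3 (adjusted p = 0.0675 to 0.146), that of Pdk2 without any 1 other than KO E3 replicate 2 (adjusted p = 0.0539 to 0.143) and that of Pfkm without KO E3 replicate 2 or KO E5 replicate 1 or 2 (adjusted p = 0.0509 to 0.0997). Without KO E3 replicate 3, Gapdh (0.33, adjusted p = 0.011) and Ldha (0.41, adjusted p = 0.0483) were called higher in KO E5 as well. The median member difference was 0.19, beside -0.01 for all genes.

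Genes on either side of a member on its chromosome were examined for shared shifts. The median log2 fold change of the 20 nearest tested genes (10 on each side) lay between -0.34 and 0.31 in KO E3 and between -0.48 and 0.31 in KO E5. In KO E3, the medians around Slc16a3 (-0.10), Ero1a (-0.09), Ndrg1 (-0.07) and Ldhb (-0.05) were small beside the change of the member itself, as was that around Ldhb in KO E5 (0.0033). Some other called members lay among neighbours that shifted in the same direction. In KO E3 the median was -0.33 around Hk1, beside -0.38 for Hk1 itself, and -0.34 around Pfkl, beside -0.54 for Pfkl. In KO E5 it was 0.31 around Egln3, beside 0.36 for Egln3, and 0.28 around Pdk3, beside 0.43 for Pdk3. It was also 0.26 around Pgk1, beside 0.60, 0.28 around Pfkp, beside 0.73, and -0.38 around the second Aldoa row, beside -0.98. The lowest median of KO E5, -0.48, was that around the main Aldoa row, which was at -0.27 and not called. Others differed in direction from their neighbours, such as Hk1 in KO E5 (0.58, with a median of -0.08 around it). Between the clones, the neighbours of Pfkp (0.48), Hif1a (0.42) and Slc2a3 (0.39) were higher in KO E5, in the direction of those members. For Hif1a that median was near the member's own difference of 0.58; the part of these regional shifts in the members' values was not tested.

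Further genes of the same pathways were read from lists that excluded the 43 members. Among 27 tested HIF targets, 4 rose and 6 fell in KO E3 (37% called, beside 30.5% of all genes) and 6 rose and 6 fell in KO E5 (44.4%, beside 20.6%). The calls in KO E3 numbered 5 without WT replicate 2 or 3 or KO E3 replicate 1 and 16 without KO E3 replicate 3, and those in KO E5 numbered 7 without WT replicate 1 or 2 and 6 without KO E5 replicate 1. The calls of all genes in these fits are not set beside them, so these counts cannot show a sensitivity particular to these targets. Vegfa, the main angiogenic factor, was at 182, 180.4 and 175 CPM in WT, 79.9, 55.7 and 73.1 CPM in KO E3 and 95.8, 124 and 132 CPM in KO E5. It lay below WT in both clones, with log2 fold changes of -1.36 ± 0.15 (adjusted p = 0.000155) and -0.61 ± 0.15 (adjusted p = 0.016, and 0.0533 to 0.0642 without WT replicate 1 or 2 or KO E5 replicate 1). Stc2, a secreted glycoprotein of the stress response, rose in KO E5 by 2.61 ± 0.19 (adjusted p = 6.9e-06), with a change of -0.21 in KO E3. Rora, a nuclear receptor, had no count in any KO E5 library, at least 5.57-fold lower than WT at a detection floor of 3 counts per library, and rose in KO E3 by 1.09 ± 0.33 (adjusted p = 0.0348, lost without any 1 of the WT libraries or KO E3 replicate 1 or 2 at 0.0534 to 0.136). Between the clones, 13 of these targets were higher and 5 lower in KO E5 (66.7% called, beside 31.9% of all genes).

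Among 10 other sugar and monocarboxylate transporters and their regulators, 2 rose and 4 fell in KO E3 (60% called, beside 30.5% of all genes). In KO E5, 1 rose and 3 fell (40%, beside 20.6%), and 2 calls remained where every library had to hold 10 counts. The calls of all genes in that fit are not set beside this count. All 10 were called between the clones, 5 higher and 5 lower in KO E5, where 31.9% of all genes were called. Slc16a6, a relative of the lactate carriers, fell in both clones, by -2.13 ± 0.20 (adjusted p = 5.8e-05) and -1.47 ± 0.20 (adjusted p = 0.000443). Its call between the clones (0.66, adjusted p = 0.0355) was lost without any 1 library other than WT replicate 1 and KO E3 replicate 2 (adjusted p = 0.0501 to 0.0908) and with the replicate block (adjusted p = 0.0583) or only the 2 clones in the fit (adjusted p = 0.0788). Slc2a6, which encodes GLUT6, rose in KO E3 by 2.91 ± 0.35 (adjusted p = 0.000249). Arrdc4, an arrestin-related regulator of glucose uptake, fell in KO E5 by -2.23 ± 0.33 (adjusted p = 0.000997). Slc2a10, which encodes GLUT10, held 16, 19 and 10 counts in WT, 2, 1 and 0 in KO E3 and 108, 67 and 92 in KO E5.

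Of 14 other isoforms and side enzymes of glycolysis, 3 rose and 3 fell in KO E3 (42.9% called, beside 30.5% of all genes) and 2 rose and 2 fell in KO E5 (28.6%, beside 20.6%). Pcx, which makes oxaloacetate from pyruvate, was at 21.9, 32.6 and 34 CPM in WT, 88.8, 96.3 and 77.4 CPM in KO E3 and 50.6, 54.4 and 45.1 CPM in KO E5. Both clones lay above WT, by 1.57 ± 0.17 (adjusted p = 0.000108) and 0.76 ± 0.16 (adjusted p = 0.00823). Pck2, the mitochondrial form of the enzyme that returns oxaloacetate to phosphoenolpyruvate, fell in KO E3 by -1.06 ± 0.20 (adjusted p = 0.00302), with -0.16 in KO E5. Of 15 other HIF pathway regulators, 2 rose and 2 fell in KO E3 (26.7% called) and 1 fell in KO E5 (6.67%), both shares below those of all genes. Arnt2, a partner subunit of HIF alpha, rose in KO E3 by 2.58 ± 0.30 (adjusted p = 0.00018), and P4htm, a membrane prolyl hydroxylase, had no count in KO E5, at least 7.59-fold lower than WT at the same floor. The 8 genes of the pentose phosphate pathway showed 1 rise and 1 fall in KO E3 and 1 rise in KO E5, and the 10 genes of pyruvate entry into mitochondria 1 rise and 2 falls in KO E3 and 2 rises in KO E5. The shares called were 25% and 12.5% for the first list and 30% and 20% for the second, at or below the 30.5% and 20.6% of all genes. These small counts moved with single libraries. The calls of all genes in the fits below are not set beside them, so they cannot show a sensitivity particular to these lists. Without KO E3 replicate 3, the pyruvate entry list had 6 calls in each clone, the pentose phosphate list 4 in KO E5 and the HIF regulators 5 in KO E5. The pyruvate entry calls in KO E3 numbered 0 without WT replicate 2 or 3 and 1 without WT replicate 1 or KO E3 replicate 1, and those in KO E5 numbered 1 without any 1 of the WT libraries or KO E5 replicate 1 or 2. The HIF regulators had 2 calls in KO E3 without WT replicate 1 or 2 or KO E3 replicate 1, and the pentose phosphate list had 3 in KO E5 without KO E3 replicate 2 and 2 without KO E5 replicate 3.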

How the data were processed

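RNA of cultured LLC cells was made into 9 directional polyA libraries, 3 each of WT, KO E3 and KO E5, and sequenced from both ends. Per the labels and the submitters' processing notes, the authors used FastQC, Trimmomatic and STAR with build GRCm39; which tool counted the reads, with which annotation and whether by strand, is not given in the sources used here. The deposited values are raw counts per gene, with no normalization. Columns were matched to samples by the library name in the labels.

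The members and the other gene lists were chosen with earlier results of these data known. Named genes were members that were DEGs in any comparison or of a set list of 14 well-known members, and at most 4 genes of each other list, taken by size of fold change among DEGs of a clone against WT.

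Counts were tested in R 4.3.3 with edgeR 4.0.16: filterByExpr with a minimum count of 10 and a minimum total of 15, TMM scaling, glmQLFit over all 9 libraries with the line as the only term, and glmQLFTest for each pair of lines. The study used DESeq2; DESeq2 1.42.0 served as an alternative. Adjusted p-values are Benjamini-Hochberg values over 14593 rows, and calls need 0.05. The biological coefficient of variation was 14.8%. On simulated counts for the comparison of KO E3 with WT, on 14593 genes, all 200 genes changed 3-fold were recovered with 7 false calls. The changed genes were drawn from well-counted ones, with the same spread for all genes and no outlying library. This check of the code therefore does not cover smaller changes, low counts or a library such as KO E3 replicate 3. Levels per kb used the Ensembl canonical transcript of GENCODE M39, and promoter windows the 250 bases before its start. The detection floor was 3 counts per library. No sign was seen that replicate numbers pair the libraries. Over 9 pairs of the same number the correlation of deviations ran from -0.172 to 0.0472, and over pairs of different numbers from -0.161 to 0.183. With 3 libraries per line this is a weak check. Alternatives were other scalings, filters and samples in the fit, the replicate block, and leaving out each library. Bounds at 0 counts and ratios of counts cover counting error only.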

Additional observations from a re-analysis of the deposited data

Results flagged for a closer look

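The clones differed from each other, past a Benjamini-Hochberg adjusted p of 0.05 in the quasi-likelihood test of edgeR and by more than 1 on the log2 scale, at 8 members and at 7 of the other genes named above. Higher in KO E5 than in KO E3 were Slc2a3 by 1.96, Pfkp by 1.41, Hk2 by 1.05, Slc16a3 by 3.44, Ero1a by 1.00, Ndrg1 by 1.15 and Stc2 by 2.82. Lower in KO E5 than in KO E3 were Ldhb, with a log2 difference of -4.25, Car12 with -5.11, Slc2a6 with -2.28, Arrdc4 with -2.00 and Arnt2 with -3.59. Slc2a10 had 3 counts over the KO E3 libraries and 267 over the KO E5 libraries, a ratio of 86.7 per effective library size with a 95% exact binomial interval from 29.4 to 423. Rora and P4htm had no count in KO E5, so that KO E3 was at least 11.9-fold and at least 3.99-fold higher at a floor of 3 counts per library. The 2 directions are those of the lines compared, and both clones share the same WT libraries.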

How the results depend on the processing

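The member values followed here were those called in a comparison, those of DEGs in any comparison and those of the set list of 14. Gains by other members were not counted, so the losses and gains below cannot be set against each other. Of 1354 pairs of such a value and an alternative, 1222 kept their direction and their side of the threshold. Of the rest, 108 kept their direction and lost the call, 7 gained one and 17 changed sign. The 5 DEGs of KO E5 became 3 where every library had to hold 10 counts and 3 with the replicate block, where 13 members were called. The calls in KO E5 of Egln1 (adjusted p = 0.0542) and Ankrd37 (adjusted p = 0.0545) were lost in the first of these fits. With the replicate block, those of Pfkl, Car9, Egln1, Vhl, Egln3 and Ankrd37 were lost (adjusted p = 0.0507 to 0.0995). The block left 20 calls in KO E3 and 14 between the clones. Whether the replicate numbers pair the libraries is not known, and the correlations above gave no sign of it. Leaving out single libraries gave 15 to 22 member calls and 8 to 11 DEGs in KO E3, 10 to 26 and 2 to 6 in KO E5, and 14 to 22 and 6 to 9 between the clones. The calls of all genes in the same fits are not set beside these counts, which cannot show a sensitivity particular to the members. With only the 2 lines compared in the fit, KO E5 had 27 calls. Upper-quartile scaling, which moved the median of all genes by -0.014 in KO E5, gave 8 higher and 8 lower members in KO E5. Under it the calls of Egln1, Vhl and Ankrd37 in KO E5 were lost (adjusted p = 0.0605 to 0.0726). The cause of these changes was not tested.

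Some values near 0 changed sign. Under upper-quartile scaling, which moved the median of all genes by 0.077 in KO E3 and -0.091 between the clones, Aldoa (0.024), Pkm (0.043) and Ldha (0.0070) turned positive in KO E3, and Car9 (-0.080) and Pkm (-0.015) turned negative between the clones. Car9 was -0.0037 there where every library had to hold 10 counts. Leaving out single libraries gave these ranges: in KO E3, Aldoa -0.19 to 0.017, Pkm -0.12 to 0.041, Ldha -0.17 to 0.081 and Arrdc4 -0.45 to 0.050, in KO E5, Pdk1 -0.0040 to 0.18, Hif1a -0.019 to 0.063 and Pck2 -0.32 to 0.0035, and between the clones, Car9 -0.21 to 0.25, Egln1 -0.12 to 0.032 and Pkm -0.0020 to 0.17. The other lists were run under the same alternatives, a choice made after the data had been seen. Car9, Car12, Pdk4 and Aldoc held the fewest counts among the tested members, which limits their precision.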
